A study of Mus musculus with 18 samples.

Results

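Ccr7, S1pr1, Dapl1 and Actn1 are genes of the lymph node homing and naive state programme of T cells. They were followed with every probe set whose annotation names one of these symbols alone. They are 4 of 18193 genes with such a probe set, and had 6 of the 45037 non-control probe sets on the array: 1 each for Ccr7 (1423466_at), S1pr1 (1423571_at) and Dapl1 (1453568_at), and 3 for Actn1 (1428585_at, 1452415_at and 1427385_s_at). All 6 were among the 26860 probe sets tested. The study profiled mouse naive CD4+ T cells on Affymetrix Mouse Genome 430 2.0 arrays, with 18 arrays in 6 groups of 3. The groups were STAT3-deficient cells given IL-27, STAT3-deficient cells given IL-6, STAT3-deficient cells in medium alone, wild-type (WT) cells given IL-27, WT cells given IL-6 and WT cells in medium alone. Each cytokine was used at 20 ng/ml, and every group was harvested after 3 hours in vitro. The STAT3-deficient cells are labelled Cd4-Cre_C57BL6-STAT3<tm1Dlv> (STAT3KO), in which Cre driven by the Cd4 promoter removes Stat3 from T cells and not from the rest of the animal. The WT cells are C57BL/6J. All cells came from spleen and lymph nodes and were sorted by surface markers as naive CD4+ T cells, with CD44 and CD25 among the markers sorted against. The age of the animals is not given in the labels. The series calls its replicates biological triplicates, and the labels do not say what the replicate numbers stand for, so p-values measure the spread between these samples.

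A naive T cell enters a lymph node through high endothelial venules, where it is activated through the chemokine receptor CCR7 by its ligands CCL19 and CCL21, and arrested by integrins. It leaves by following sphingosine 1-phosphate (S1P), which its receptor S1PR1 senses. The transcription factor FOXO1 supports transcription of Klf2, Ccr7 and Il7r, and KLF2 in turn drives S1pr1, whereas IL-6 and IL-27 signal through STAT3. Dapl1 encodes a small protein related to death-associated protein 1, and its transcript is abundant in naive T cells. Actn1 encodes alpha-actinin-1, which crosslinks actin filaments and connects them to integrins.

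RefSeq promoter sequences (GRCm38.p6) were matched for 2 of the 4 genes, Dapl1 and Actn1, and are printed because the transcripts of both moved with the cytokines. Each is the 250 bases before the annotated start, 5′ to 3′ on the gene's strand, with motif matches in capitals. The Dapl1 window lies at chr2:59484403-59484652 on the + strand and the Actn1 window at chr12:80260364-80260613 on the - strand.
Dapl1: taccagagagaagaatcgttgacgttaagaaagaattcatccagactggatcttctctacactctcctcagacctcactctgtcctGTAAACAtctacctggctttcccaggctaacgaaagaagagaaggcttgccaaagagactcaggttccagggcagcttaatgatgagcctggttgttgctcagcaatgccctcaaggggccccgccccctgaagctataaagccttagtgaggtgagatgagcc
Actn1: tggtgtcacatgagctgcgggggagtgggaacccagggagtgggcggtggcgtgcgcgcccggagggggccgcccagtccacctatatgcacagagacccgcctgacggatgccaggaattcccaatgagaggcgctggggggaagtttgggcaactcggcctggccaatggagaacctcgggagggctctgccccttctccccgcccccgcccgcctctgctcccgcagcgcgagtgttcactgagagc
The motifs searched on both strands were TTC and GAA separated by any 3 bases (STAT), GTAAACA (forkhead, FOXO) and CACCC (KLF). The Dapl1 window held 1 match, the forkhead motif on the + strand, 164 to 158 bases before the start, and its GC content was 50.0%. The Actn1 window held 0 matches at a GC content of 68.4%. Among 32851 RefSeq promoter windows of the same length, 3.17% held the forkhead motif, 7.02% the STAT motif and 52.0% the KLF motif, and the median GC content was 52.4%.

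The labels were checked first. Stat3 (1460700_at) lay at 10.19, 10.36 and 10.18 in STAT3-deficient cells in medium, against 11.54, 11.34 and 11.18 in WT cells in medium, on the log2 scale of quantile-normalised signal plus 32 used for every level here. The log2 difference between the genotypes in medium was -1.11 ± 0.12 (SE; limma, adjusted p = 1.15e-05). It was -1.98 ± 0.12 with IL-6 and -0.91 ± 0.12 with IL-27 (adjusted p = 2.32e-09 and 8.98e-05). In STAT3-deficient cells the same probe set still rose against medium, by 1.00 ± 0.12 with IL-6 and 1.77 ± 0.12 with IL-27 (adjusted p = 2.92e-05 and 6.65e-09). Where the probe set lies relative to the deleted part was not determined, so its remaining signal is not a measure of the deletion. Socs3, a STAT3 target that feeds back on cytokine receptors, changed with IL-6 by 0.77 ± 0.15 in STAT3-deficient cells and by 4.18 ± 0.15 in WT cells (adjusted p = 0.00847 and 1.49e-12). With IL-27 the Socs3 changes were 1.43 ± 0.15 and 2.34 ± 0.15 in the same order of genotypes (adjusted p = 3.39e-06 and 3.11e-09). Summed signal of 7 tested CD4 T cell markers ran from 58483 to 75763 in STAT3-deficient arrays and from 56514 to 83013 in WT arrays. The B cell markers, 7 tested of 10 listed, summed to 2066 to 3969 in STAT3-deficient arrays against 972 to 1241 in WT arrays, and 6 of the 7 were called higher in STAT3-deficient cells in medium. The 3'/5' ratio of the Gapdh control was 0.688 to 0.829 in STAT3-deficient arrays against 0.513 to 0.564 in WT arrays, and that of the beta-actin control 1.51 to 1.63 against 1.38 to 1.48. Median deposited signal was 131.5 to 190.4 in STAT3-deficient arrays against 104.4 to 126.8 in WT arrays, and the first principal component, which held 33.8% of the variance, separated the genotypes. Extraction or hybridisation batches are not given, so a batch and the genotype cannot be told apart. In the 3 STAT3-deficient arrays numbered 3, summed signal of 7 markers of activated or memory T cells was 33728 to 35265, against 8922 to 20924 in the other STAT3-deficient arrays.

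In WT cells both cytokines lowered Dapl1, Ccr7 and the brightest Actn1 probe set, whereas S1pr1 lay above medium with IL-6 and below it with IL-27. The changes passed the test for 3 of the 6 probe sets with IL-6, all lower, where 6.19% of all probe sets tested were called and 3.22% were called lower. With IL-27 the same 3 probe sets were called, all lower, against 3.06% of all probe sets called and 1.07% called lower. A call is an adjusted p under 0.05 in limma with Benjamini-Hochberg adjustment over all 26860 probe sets. In bulk samples like these, fewer cells of a type and less RNA per cell cannot be told apart.

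**Figure D1:**
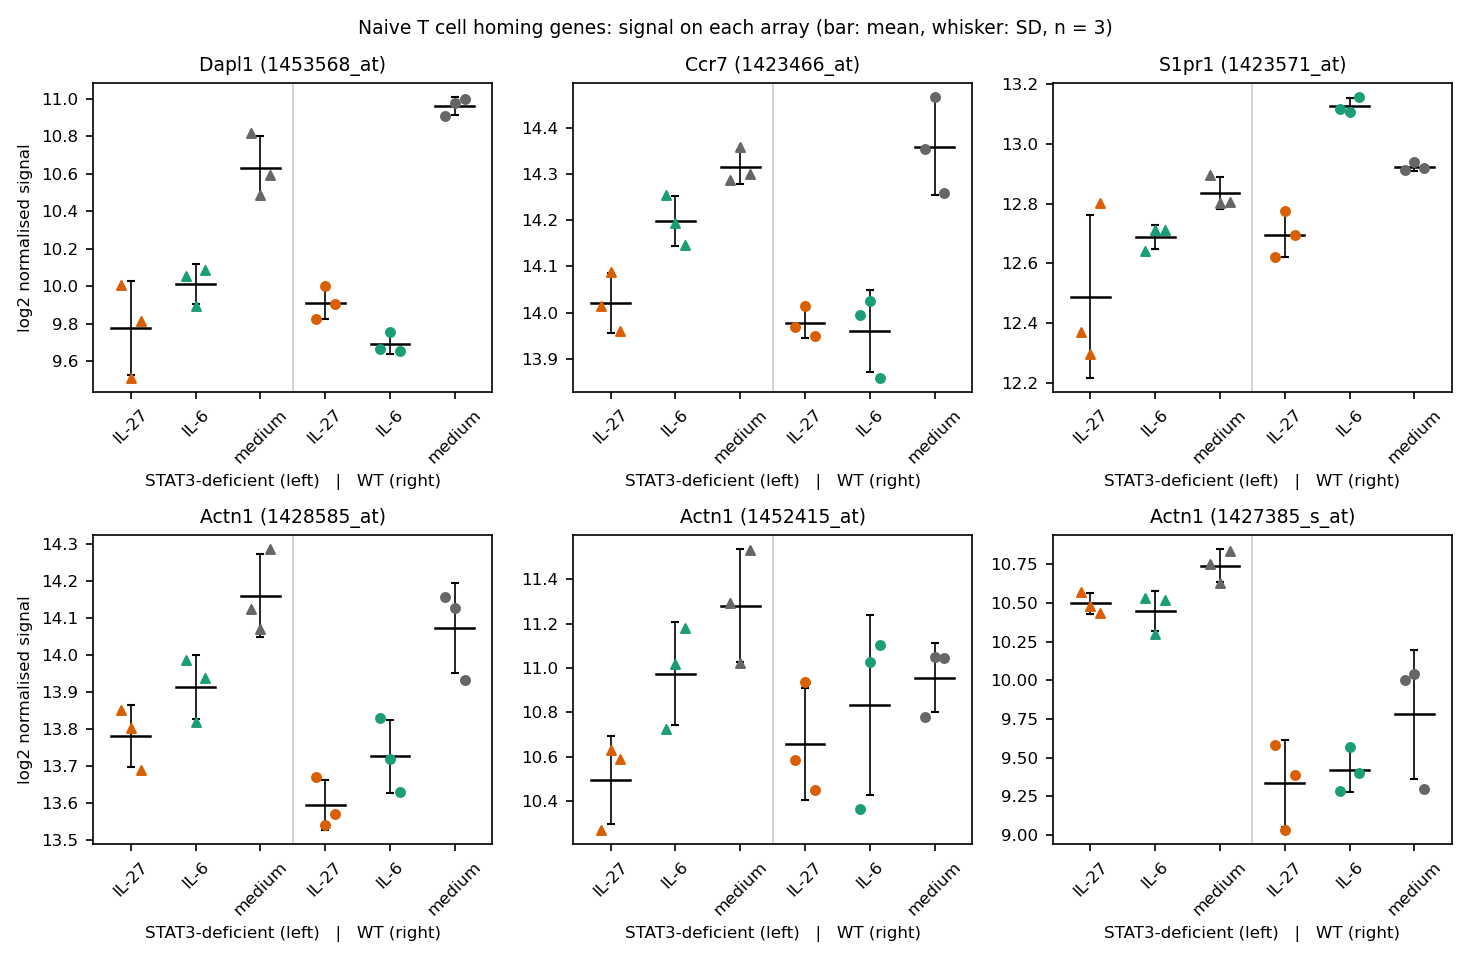
Log2 normalised signal (signal plus 32) of each homing gene probe set on each of the 18 arrays, by group, with STAT3-deficient groups at the left of each panel and WT groups at the right. Points are arrays, bars are group means and whiskers are SD (n = 3); each panel has its own vertical scale, which does not start at 0. Dapl1 is lower on every cytokine array than on every medium array of its genotype, and S1pr1 is highest in WT cells given IL-6.

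Dapl1 had the largest log2 changes against medium of the 4 genes, with either cytokine and in either genotype. In STAT3-deficient cells it lay at 10.00, 9.51 and 9.82 with IL-27, 10.06, 9.89 and 10.09 with IL-6, and 10.82, 10.49 and 10.59 in medium. In WT cells it lay at 9.83, 10.00 and 9.91 with IL-27, 9.67, 9.76 and 9.65 with IL-6, and 10.91, 10.98 and 11.00 in medium. All cytokine arrays of both genotypes were below all medium arrays. For comparison, the IL-6 and medium arrays of STAT3-deficient cells did not overlap in 11.3% of all probe sets. Linear normalised signal averaged 796 ± 32.5 with IL-6 and 1964 ± 64.4 in medium in WT cells (SD, n = 3 each). Against medium in WT cells, Dapl1 fell 2.41-fold with IL-6, a log2 change of -1.27 ± 0.13 (SE; limma, adjusted p = 1.26e-06). It fell 2.07-fold with IL-27, a log2 change of -1.05 ± 0.13 (adjusted p = 1.81e-05). In the order of levels, WT medium was highest and STAT3-deficient medium next, each apart from its neighbours, and each neighbouring pair among the 4 cytokine groups overlapped.

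Dapl1 also fell in STAT3-deficient cells. The change with IL-27 was -0.86 ± 0.13 (limma, adjusted p = 1.96e-04), 1.81-fold lower. With IL-6 it was -0.62 ± 0.13 (adjusted p = 0.0101), 1.54-fold lower, and this call was lost with median centring in place of quantile normalisation (-0.38, adjusted p = 0.523) and with only the arrays compared in the fit (adjusted p = 0.135). It was also lost without STAT3-deficient medium replicate 1 (-0.53, adjusted p = 0.0808), without STAT3-deficient IL-6 replicate 2 (-0.56, adjusted p = 0.0651), and without the 3 STAT3-deficient arrays numbered 3 (-0.68, adjusted p = 0.0517). Taken as STAT3-deficient minus WT, the IL-6 changes differed by 0.65 ± 0.18, which missed the threshold (adjusted p = 0.0702). It was called in 6 of 13 alternatives other than leaving out single arrays, and without any one of STAT3-deficient medium replicate 1 (0.74, adjusted p = 0.0408) or STAT3-deficient IL-27 replicate 1 or 2. The IL-27 change differed between the genotypes by 0.19 ± 0.18 (adjusted p = 0.801; 95% interval -0.18 to 0.57). Its paralogue Dap, which encodes death-associated protein 1, was not called with either cytokine: its log2 change with IL-6 was 0.08 ± 0.17 in STAT3-deficient cells and -0.45 ± 0.17 in WT cells (adjusted p = 0.965 and 0.154).

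Ccr7, the receptor that brings naive T cells into the T cell zone, moved within a narrower range. Its levels in STAT3-deficient cells were 14.01, 14.09 and 13.96 with IL-27, 14.25, 14.19 and 14.15 with IL-6, and 14.29, 14.36 and 14.30 in medium. In WT cells they were 13.97, 14.01 and 13.95 with IL-27, 14.00, 14.03 and 13.86 with IL-6, and 14.35, 14.47 and 14.26 in medium. The 2 medium groups overlapped at the top of the order, and STAT3-deficient cells given IL-6 stood alone between them and the other 3 cytokine groups, which overlapped. In WT cells Ccr7 fell 1.32-fold with IL-6, a log2 change of -0.40 ± 0.07 (limma, adjusted p = 4.76e-04). It fell 1.30-fold with IL-27 (-0.38 ± 0.07, adjusted p = 0.00133), and the log2 difference between IL-27 and IL-6 was 0.02 ± 0.07 (adjusted p = 0.981; 95% interval -0.12 to 0.16). Median centring ended both calls (adjusted p = 0.165 with IL-6 and 0.319 with IL-27) with changes of -0.40 and -0.36, and the deposited scaling ended that of IL-27 (adjusted p = 0.0509).

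In STAT3-deficient cells Ccr7 changed with IL-27 by -0.30 ± 0.07 (adjusted p = 0.0128), 1.23-fold lower, but median centring gave 0.089 and the deposited scaling -0.10, neither called. This call was also lost without STAT3-deficient medium replicate 2 (-0.27, adjusted p = 0.0640) and without the arrays numbered 3 (-0.27, adjusted p = 0.0645). With IL-6 its change there was -0.12 ± 0.07 (adjusted p = 0.752), and 0.18 with median centring. All IL-6 arrays lay below all medium arrays, a separation in either direction shown by 11.3% of all probe sets. Deposited signals overlapped, at 16450 to 18688 with IL-6 and 16541 to 18432 in medium. The test of the difference between the genotypes gave 0.28 ± 0.09 for the IL-6 change (adjusted p = 0.162) and 0.09 ± 0.09 for the IL-27 change (adjusted p = 0.827).

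**Figure D2:**
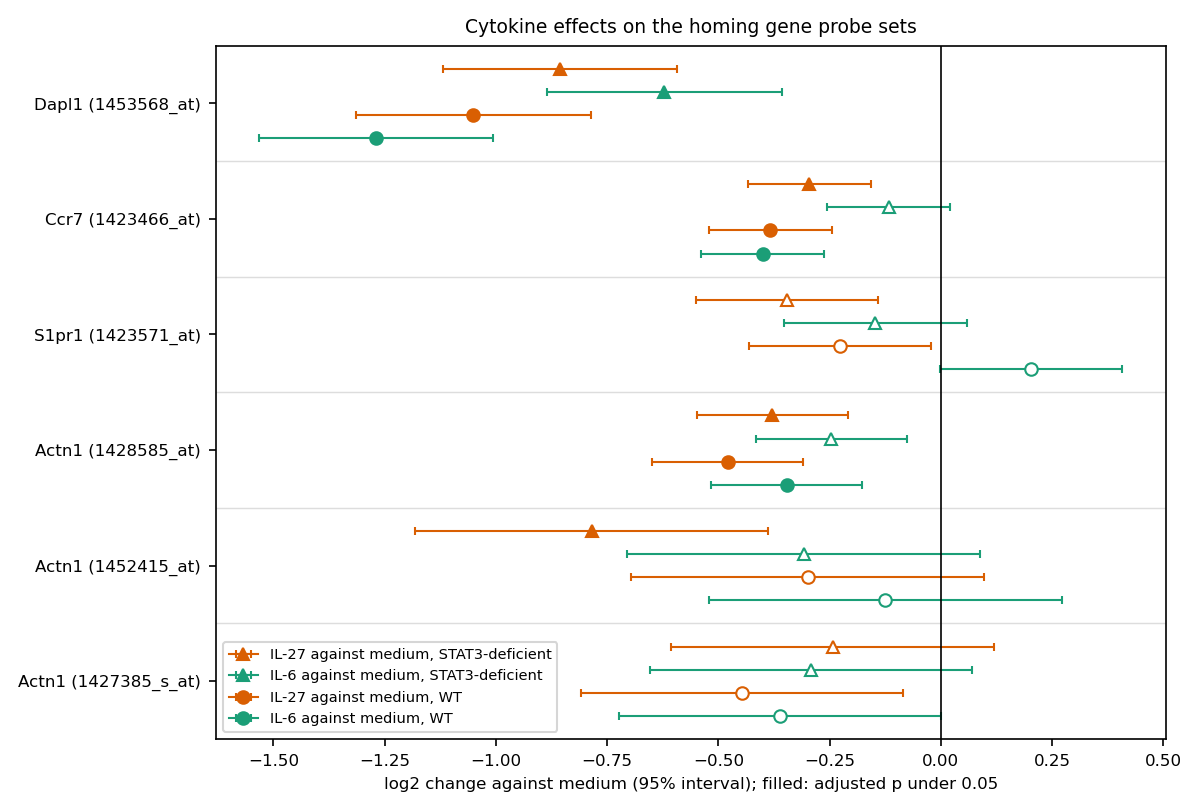
Log2 change against medium of each homing gene probe set with IL-27 and IL-6 in STAT3-deficient cells (triangles) and WT cells (circles). Whiskers are 95% intervals from limma and filled symbols have an adjusted p under 0.05. Dapl1 has 4 filled symbols and S1pr1 none, with its IL-6 value in WT cells to the right of 0 at 0.20.

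Actn1 gave different readings from its 3 probe sets. The probe set 1428585_at lay at 13.85, 13.80 and 13.69 with IL-27, 13.98, 13.82 and 13.94 with IL-6, and 14.12, 14.07 and 14.28 in medium in STAT3-deficient cells. In WT cells it lay at 13.67, 13.54 and 13.57 with IL-27, 13.83, 13.72 and 13.63 with IL-6, and 14.16, 14.13 and 13.93 in medium. Within each genotype all cytokine arrays were below all medium arrays. Of all probe sets, 16.2% were so separated in either direction with IL-27 and 11.3% with IL-6 in STAT3-deficient cells. In WT cells these shares were 19.4% and 23.1%. In deposited signal the STAT3-deficient IL-6 arrays overlapped medium, at 12831 to 15958 against 14479 to 18270. Every neighbouring pair in the order of the 6 groups overlapped. In WT cells it fell 1.27-fold with IL-6 (log2 change -0.35 ± 0.08; limma, adjusted p = 0.0109) and 1.39-fold with IL-27 (-0.48 ± 0.08; adjusted p = 0.00109). The IL-6 call was lost without WT medium replicate 1 or 2 or WT IL-6 replicate 3, and also with the deposited scaling (adjusted p = 0.0988), with median centring (adjusted p = 0.384) or with no variance trend (adjusted p = 0.0785). Median centring also ended the IL-27 call (adjusted p = 0.242).

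In STAT3-deficient cells 1428585_at changed with IL-27 by -0.38 ± 0.08 (adjusted p = 0.00887), 1.30-fold lower, and by -0.27 (adjusted p = 0.109) without the arrays numbered 3. It was not called without STAT3-deficient medium replicate 3 (-0.32, adjusted p = 0.0528), with the deposited scaling (-0.19, adjusted p = 0.452) or with median centring (-0.00092, adjusted p = 0.999). With IL-6 the change was -0.25 ± 0.08 (adjusted p = 0.265). The probe set 1452415_at was called with IL-27 in STAT3-deficient cells, where it lay at 10.27, 10.63 and 10.59 with IL-27, 10.72, 11.02 and 11.18 with IL-6, and 11.29, 11.02 and 11.53 in medium. Its IL-27 arrays lay below all arrays of the other 2 STAT3-deficient groups. Separation in either direction was shown by 16.2% of all probe sets against medium and by 7.85% against IL-6. The log2 change against medium was -0.78 ± 0.19 (adjusted p = 0.0218), 1.72-fold lower. This call was lost without any one of STAT3-deficient medium replicate 1, STAT3-deficient medium replicate 3 or STAT3-deficient IL-27 replicate 1, at changes of -0.78, -0.66 and -0.67. Without the arrays numbered 3 it was -0.71 (adjusted p = 0.0809), and with median centring -0.51 (adjusted p = 0.259). In WT cells 1452415_at ranged from 10.45 to 10.94 with IL-27, from 10.37 to 11.10 with IL-6 and from 10.78 to 11.05 in medium, with no call. The third probe set, 1427385_s_at, was not called with either cytokine in either genotype, at log2 changes of -0.24 to -0.45, but without WT medium replicate 3 it was called in WT cells with IL-6 (-0.60, adjusted p = 0.0220) and IL-27 (-0.69, adjusted p = 0.0150). The suffix s_at marks a probe set that may detect more than 1 transcript, and what the 3 probe sets detect was not resolved here.

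With IL-6 in WT cells the mean of every probe set of Dapl1, Ccr7 and Actn1 lay below medium. The arrays of Actn1 1452415_at and 1427385_s_at overlapped medium there. S1pr1, the egress receptor, lay above medium with IL-6 in WT cells and below medium in the other 3 cytokine comparisons with medium. In STAT3-deficient cells it lay at 12.37, 12.30 and 12.80 with IL-27, 12.64, 12.71 and 12.71 with IL-6, and 12.90, 12.80 and 12.81 in medium. In WT cells it lay at 12.62, 12.77 and 12.69 with IL-27, 13.12, 13.10 and 13.16 with IL-6, and 12.91, 12.94 and 12.92 in medium. The 3 WT IL-6 arrays were the highest of all 18, followed without overlap by the WT medium and then the STAT3-deficient medium arrays, and the remaining 3 groups overlapped one another. Against medium in WT cells the log2 change was 0.20 ± 0.10 with IL-6 (limma, adjusted p = 0.325; 95% interval -0.0025 to 0.41), with no overlap between the groups, as for 23.1% of all probe sets tested. With IL-27 it was -0.23 ± 0.10 (adjusted p = 0.324; 95% interval -0.43 to -0.02), again with no overlap, as for 19.4% of all probe sets.

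The direct comparison of the cytokines in WT cells, IL-27 over IL-6, called 1 of the 6 probe sets, S1pr1, against 2.32% of all probe sets; their arrays did not overlap, as for 17.2% of all probe sets. S1pr1 averaged 6611 ± 351 normalised signal units with IL-27 and 8906 ± 169 with IL-6 (SD, n = 3 each), a log2 change of -0.43 ± 0.10 (limma, adjusted p = 0.0199) and 1.35-fold lower with IL-27. The call was lost without any one of the 3 WT IL-6 arrays or WT IL-27 replicate 1 or 3, and over the 18 fits without 1 array the log2 change lay between -0.47 and -0.39, with an adjusted p of up to 0.104. Median centring gave -0.45 (adjusted p = 0.0981), and the call was also lost with no variance trend (adjusted p = 0.0928). For the other 5 probe sets the IL-27 minus IL-6 changes ran from -0.17 to 0.22 (adjusted p from 0.640 to 0.981).

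In STAT3-deficient cells S1pr1 did not lie above medium with either cytokine. The changes were -0.35 ± 0.10 with IL-27 (adjusted p = 0.0601) and -0.15 ± 0.10 with IL-6 (adjusted p = 0.820), and they were -0.03 and 0.15 with median centring. Without STAT3-deficient IL-27 replicate 3, the array at 12.80, the IL-27 change was -0.50 and passed the test (adjusted p = 2.81e-04), as it did in 6 of the 13 other alternatives. In that array Cd69, whose protein removes S1PR1 from the cell surface, lay at 13.03, against 10.83 and 11.04 in the other 2 of its group. Summed signal of activated or memory T cell markers was 35265 in that array. It was 33728 and 34579 in the STAT3-deficient medium and IL-6 arrays numbered 3. S1pr1 lay at 12.81 and 12.71 in these 2 arrays, near the rest of their groups. The part of activation markers in the spread of S1pr1 with IL-27 was not tested. The IL-6 change of S1pr1 differed between STAT3-deficient and WT cells by -0.35 ± 0.14 (adjusted p = 0.296). The comparison of IL-27 with IL-6 in STAT3-deficient cells called 0 of the 6 probe sets by limma, against 0.205% of all probe sets. Of these, 2 passed an unadjusted limma p under 0.05: Ccr7 at 0.0147, with a log2 change of -0.18, and Actn1 1452415_at at 0.0211, with -0.48.

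Counted over the STAT3-deficient comparisons, 1 of 6 probe sets was called with IL-6, against 1.43% of all probe sets called and 0.0968% called lower. With IL-27, 4 of 6 were called, all lower, against 3.60% of all probe sets called and 0.983% called lower. After quantile normalisation all 6 probe sets had their IL-27 arrays below their medium arrays in STAT3-deficient cells. Over all probe sets 16.2% were separate in either direction, and 2207 of 26860 in this one. For S1pr1 the nearest arrays lay at 12.801 with IL-27 and 12.803 in medium. In deposited signal S1pr1 and Ccr7 overlapped medium. The S1pr1 IL-27 array numbered 3, at 6804, lay above all its medium arrays, at 6366 to 6604. Ccr7 ran from 15448 to 17444 with IL-27 and from 16541 to 18432 in medium. Neither test of a difference between the genotypes called a member: 0 of 6 for the IL-6 change, against 2.21% of all probe sets, and 0 of 6 for the IL-27 change, against 0.00745%. At an unadjusted p under 0.05 the IL-6 difference held for Dapl1 (0.00177), Ccr7 (0.00709) and S1pr1 (0.0209), and the IL-27 difference for none. Over the 13 alternatives other than leaving out single arrays, 0 to 2 members were called for the IL-6 difference. The 2 were Dapl1 and Ccr7, called with a block for replicate number within genotype. Summed CD4 T cell marker signal moved alongside these genes, at 56514 to 58219 with IL-6 and 77243 to 83013 in medium in WT cells, and 60051 to 63986 with IL-27. In STAT3-deficient cells it was 58483 to 61889 with IL-27, 59693 to 68642 with IL-6 and 67709 to 75763 in medium. Mean S1pr1 lay above medium with IL-6 in WT cells, where the mean of this sum lay below it. With IL-27 in WT cells and with either cytokine in STAT3-deficient cells, both means lay below medium. Summed signal of 8 tested myeloid markers was 16087 to 17404 with IL-27, 14320 to 16266 with IL-6 and 10680 to 15242 in medium in STAT3-deficient cells, and 15574 to 17237, 12339 to 13403 and 10350 to 12448 for the same treatments in WT cells. That of 5 tested CD8 T or NK cell markers was 1964 to 2216, 2116 to 2323 and 2183 to 2472 in STAT3-deficient cells, and 2189 to 2583, 2017 to 2079 and 2902 to 3454 in WT cells, in the same order of treatments. Both cytokine groups thus lay below medium in the CD8 T or NK sum of WT cells, and the IL-27 group above medium in the myeloid sum of both genotypes. In WT cells 1 of the 5 CD8 T or NK markers, Klrd1, was called with each cytokine, lower. Its mean signal was 586 with IL-6, 823 with IL-27 and 1749 in medium, against 841, 912 and 811 for Cd8b1. Of the 8 myeloid markers, 1 was called higher with IL-27 in WT cells and 0 in STAT3-deficient cells. Ctss held most of the myeloid sum, at 13785 with IL-27 and 9010 in medium in WT cells. The part of these marker sums in the results was not tested.

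Between the genotypes the members differed mainly in 1 Actn1 probe set and, with IL-6, in S1pr1. In medium, 1 of 6 probe sets was called, against 24.3% of all probe sets, a share no higher than the background. With IL-6, 3 of 6 were called, against 20.4%, and with IL-27 1 of 6, close to the 14.7% of all probe sets. The counts depended on the normalisation. With median centring, which moved the median difference of all probe sets in medium to -0.36, Dapl1 (-0.97), Ccr7 (-0.86), S1pr1 (-0.86) and Actn1 1428585_at (-0.74) were called lower in STAT3-deficient cells in medium. Actn1 1427385_s_at lay at 10.57, 10.48 and 10.43 with IL-27, 10.53, 10.30 and 10.52 with IL-6, and 10.75, 10.63 and 10.84 in medium in STAT3-deficient cells. In WT cells it lay at 9.58, 9.03 and 9.39 with IL-27, 9.28, 9.57 and 9.40 with IL-6, and 10.00, 10.04 and 9.30 in medium. All 9 STAT3-deficient arrays were above all 9 WT arrays, as for 8.38% of all probe sets in one direction or the other. The log2 difference was 1.16 ± 0.17 with IL-27 (limma, adjusted p = 2.60e-04), 1.03 ± 0.17 with IL-6 (adjusted p = 3.17e-04) and 0.96 ± 0.17 in medium (adjusted p = 8.52e-04), or 2.24-fold, 2.04-fold and 1.95-fold higher in STAT3-deficient cells. In medium it was 0.35 (adjusted p = 0.205) with median centring. The other 2 Actn1 probe sets were not called in any of these comparisons, with differences of -0.16 to 0.32. The B cell marker sums, the control 3'/5' ratios and the median signals given above separated the same arrays, and their part in this difference was not tested.

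Among cells given IL-6, S1pr1 was 1.35-fold lower in those without STAT3, at a log2 difference of -0.44 ± 0.10 (limma, adjusted p = 0.00371). Linear normalised signal averaged 6568 ± 185 in STAT3-deficient cells and 8906 ± 169 in WT cells (SD, n = 3 each). This call held in all 18 fits that left out 1 array and in all 13 other alternatives. The difference was -0.21 ± 0.10 with IL-27 (adjusted p = 0.166; -0.36 and called without STAT3-deficient IL-27 replicate 3) and -0.09 ± 0.10 in medium (adjusted p = 0.544). Ccr7 was called higher in STAT3-deficient cells given IL-6, by 0.24 ± 0.07 (adjusted p = 0.0152), but the deposited scaling gave 0.04 and median centring -0.28, so its direction depended on the normalisation, and the call was lost without WT IL-6 replicate 3 (0.19, adjusted p = 0.0841). Dapl1 in STAT3-deficient cells differed by -0.14 ± 0.13 with IL-27, 0.32 ± 0.13 with IL-6 and -0.33 ± 0.13 in medium (adjusted p = 0.508, 0.0806 and 0.0632), and the medium difference was called without any one of STAT3-deficient medium replicate 1 (-0.42, adjusted p = 0.042) or STAT3-deficient IL-27 replicate 1 or 2. The Dapl1 arrays of the 2 genotypes did not overlap in medium, as for 40.3% of all probe sets, or with IL-6, as for 36.8%.

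Likeness to other genes was measured as Pearson's r with each of the other 11970 genes over the 18 arrays, which share group, genotype and array quality, so r is a description. Dapl1 was most like Dgkz, a diacylglycerol kinase that dampens T cell receptor signals (r = 0.95), Cd3g, a chain of the T cell receptor complex (0.94), and Ptprcap, which associates with CD45 (0.94). Over the 9 STAT3-deficient and the 9 WT arrays alone, r with Dgkz was 0.90 and 0.98. Ccr7 was most like Pde2a, a cyclic nucleotide phosphodiesterase (0.93), Pwp1 (0.91) and Vsir, which encodes the checkpoint molecule VISTA (0.91). Actn1 1428585_at was most like Asap1 (0.91), Mfng (0.90) and Ap1g2 (0.89). Among the members, r was 0.88 between Ccr7 and Actn1 1428585_at and 0.84 between Ccr7 and Dapl1, but 0.04 between Ccr7 and S1pr1. Within the STAT3-deficient arrays Ccr7 and S1pr1 had an r of 0.52, and within the WT arrays -0.0035. S1pr1 and Dapl1 had an r of 0.71 within the STAT3-deficient arrays and -0.11 within the WT arrays.

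S1pr1 was most like Gpr183 (r = 0.86), which encodes a chemoattractant receptor for oxysterols that positions lymphocytes within lymphoid tissue, followed by the RNA-binding protein genes Pcbp1 (0.85) and Cirbp (0.84). Gpr183 lay at 10.72, 10.64 and 10.87 with IL-27, 11.07, 11.12 and 11.18 with IL-6, and 11.53, 11.21 and 11.22 in medium in STAT3-deficient cells. In WT cells it lay at 11.50, 11.60 and 11.77 with IL-27, 12.42, 12.65 and 12.53 with IL-6, and 11.79, 12.04 and 12.04 in medium. As for S1pr1, the WT IL-6 arrays were the highest, but Gpr183 was picked by its r with S1pr1 over these same arrays. The resemblance is therefore no separate support for the S1pr1 pattern. Gpr183 rose with IL-6 in WT cells by 0.57 ± 0.11 (limma, adjusted p = 0.00236), and its IL-6 change in STAT3-deficient cells was -0.19 ± 0.11 (adjusted p = 0.766). The difference between these changes passed the test at -0.77 ± 0.16 (adjusted p = 0.0109). The WT comparison of IL-27 with IL-6 gave -0.91 ± 0.11 (adjusted p = 4.50e-05).

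**Figure D3:**
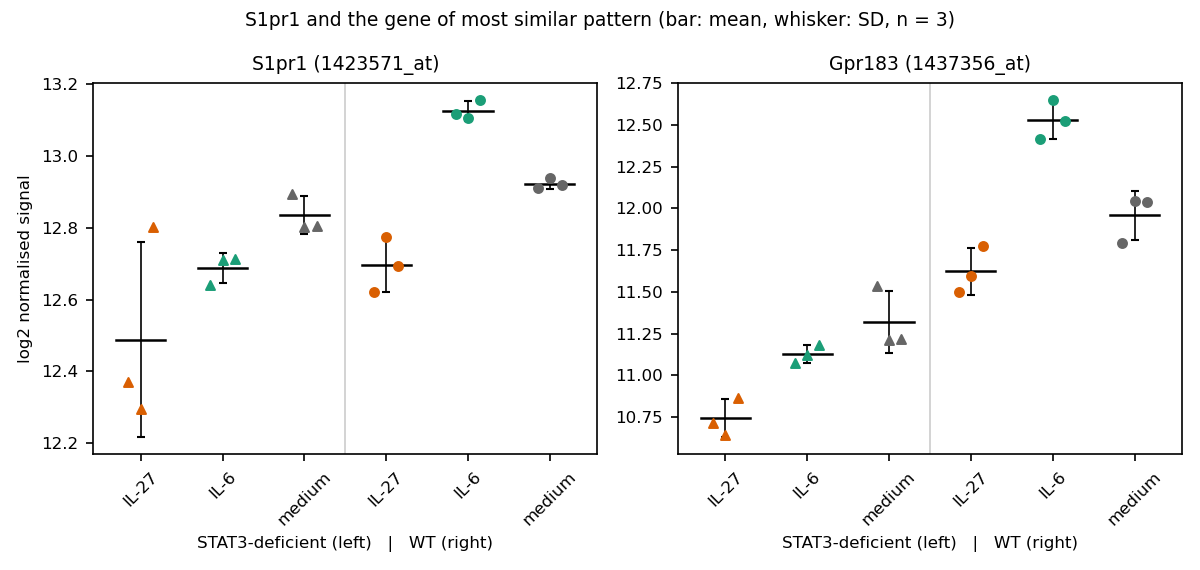
Log2 normalised signal of S1pr1 and of Gpr183, the gene with the highest correlation to it, on each array (STAT3-deficient groups at the left of each panel, WT groups at the right; bars are means, whiskers SD, n = 3). Vertical scales differ and do not start at 0. In both genes the 3 WT IL-6 arrays are the highest, and the WT medium arrays lie above the WT IL-27 arrays.

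Genes of the same pathways were counted from lists chosen with earlier results of these data known, with each gene read from its brightest probe set. Their counts stand beside the shares of all probe sets called against medium, which were 3.60% with IL-27 and 1.43% with IL-6 in STAT3-deficient cells and 3.06% with IL-27 and 6.19% with IL-6 in WT cells. Of 17 tested naive state genes, IL-6 in WT cells raised 5 and lowered 9 (median log2 change -0.53, against -0.01 over all probe sets). In STAT3-deficient cells 1 was higher and 1 lower with IL-6 (median -0.07, against -0.02 over all). With IL-27 the counts were 2 higher and 1 lower in STAT3-deficient cells (median -0.18) and 3 higher and 6 lower in WT cells (median -0.37). Klf2, the factor upstream of S1pr1, fell in WT cells, with log2 changes of -0.62 ± 0.07 for IL-6 and -0.50 ± 0.07 for IL-27 (limma, adjusted p = 8.37e-06 and 1.49e-04), while S1pr1 itself did not pass the test against medium. In STAT3-deficient cells the Klf2 changes were 0.01 ± 0.07 and -0.17 ± 0.07 for the same cytokines (adjusted p = 0.992 and 0.266). Foxo1 changed with IL-6 by -0.28 ± 0.12 in STAT3-deficient cells and -0.51 ± 0.12 in WT cells (adjusted p = 0.561 and 0.0111). Il7r, the interleukin-7 receptor chain that sustains naive T cells, changed by -0.10 ± 0.09 and -0.65 ± 0.09 in the same order of genotypes (adjusted p = 0.901 and 9.63e-05). The list did not move one way: Igfbp4, an insulin-like growth factor binding protein, rose in IL-6-treated WT cells by 2.91 ± 0.11 and Treml2 by 1.57 ± 0.15, where Cd5, an inhibitor of T cell receptor signalling, had a change of -1.64 ± 0.11 (adjusted p from 1.78e-12 to 8.62e-07).

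**Figure D4:**
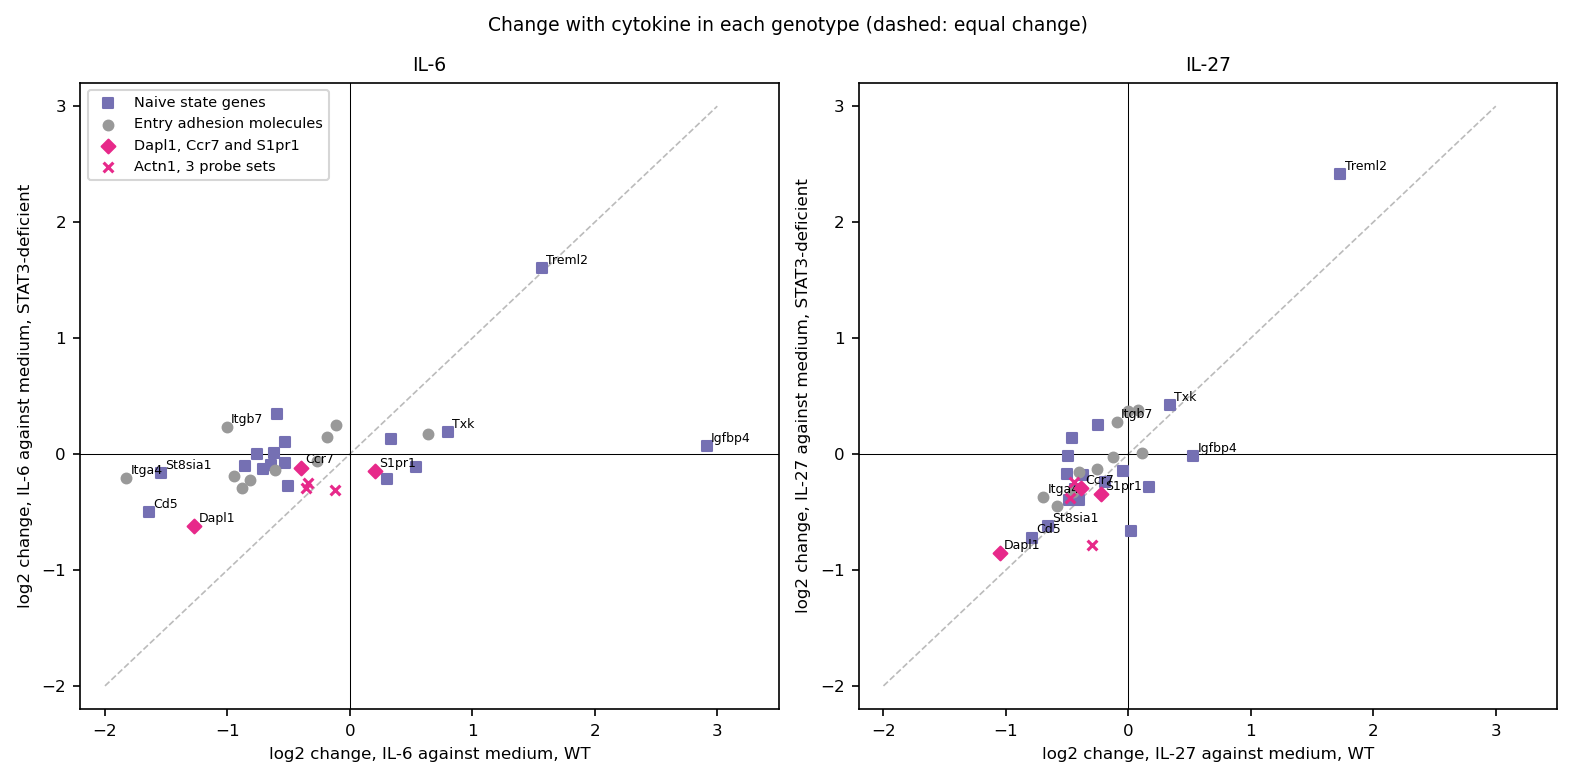
Log2 change with IL-6 (left panel) and IL-27 (right panel) against medium in STAT3-deficient cells (vertical axis) and WT cells (horizontal axis) for the homing gene probe sets, the tested naive state genes and the entry adhesion molecules. Each point is 1 probe set, and the dashed line marks equal change in both genotypes. Dapl1 lies below 0 on both axes in both panels, whereas Igfbp4 changed by 0.07 in STAT3-deficient and 2.91 in WT cells with IL-6.

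Among 10 tested adhesion molecules of lymph node entry, IL-6 gave 0 calls by limma in STAT3-deficient cells (2 at an unadjusted p under 0.05; median -0.10) and 7 in WT cells, 1 higher and 6 lower (median -0.71), against 1.43% and 6.19% of all probe sets, and at the first of these shares a count of 0 of 10 is near the background. In WT cells log2 changes were -1.83 ± 0.12 for the integrin chain Itga4, -1.01 ± 0.13 for its partner Itgb7, -0.95 ± 0.08 for Itga6 and -0.88 ± 0.13 for Itgb2, the beta chain of LFA-1 (limma, adjusted p from 6.98e-09 to 1.57e-04). With IL-27 the counts were 1 higher and 1 lower in STAT3-deficient cells and 0 higher and 3 lower in WT cells. The CCR7 ligand genes Ccl19 and Ccl21 were not analysed here. Of 9 tested genes of the lymphoid chemokine axis, IL-6 in WT cells raised Gpr183 and lowered Cxcr4, the CXCL12 receptor (Cxcr4 -1.44 ± 0.22, adjusted p = 1.73e-04). Of the 8 tested S1P receptors and enzymes, 0 were called by limma in any cytokine comparison, a count near the background of 1.43% to 6.19% of all probe sets called against medium. At an unadjusted p under 0.05 there was 1 with IL-27 in STAT3-deficient cells, 1 with IL-6 in WT cells and 0 in the other comparisons with medium.

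Of 23 tested signalling and desensitisation genes downstream of chemoattractant receptors, IL-6 gave 0 calls by limma in STAT3-deficient cells (3 at an unadjusted p under 0.05) and 9 in WT cells, 1 higher and 8 lower, against 1.43% and 6.19% of all probe sets. Arrb1 and Arrb2, the beta-arrestins that desensitise such receptors, changed in WT cells by -0.97 ± 0.15 and -0.90 ± 0.10, whereas the receptor kinase gene Grk6 rose by 0.92 ± 0.11, all called. Of 17 tested actin and integrin linkers, IL-6 gave 0 calls in STAT3-deficient cells (3 at an unadjusted p under 0.05) and 5 in WT cells, 1 higher and 4 lower, and with IL-27 1 was higher and 4 lower in STAT3-deficient cells, against 0 higher and 2 lower in WT cells. The counts of 0 with IL-6 in STAT3-deficient cells in both lists are near the background. Pdlim4, an adaptor that binds alpha-actinin, changed with IL-27 by -1.22 ± 0.30 in STAT3-deficient cells and -1.98 ± 0.30 in WT cells (adjusted p = 0.0231 and 2.90e-04). Actn4, the other alpha-actinin gene of non-muscle cells, changed with IL-27 by 0.36 ± 0.09 in STAT3-deficient cells and 0.27 ± 0.09 in WT cells (adjusted p = 0.0376 and 0.167), with the sign opposite to that of Actn1.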

How the data were processed

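RNA from the sorted T cells was biotin-labelled and hybridised to Affymetrix 430 2.0 arrays, per the labels' protocols. The values used are the authors' deposited intensity values, 1 per probe set and array, on a linear scale. The submitters' processing notes name GCOS; version and algorithm: not given in the sources used here. Precision is limited by 3 arrays per group.

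Values were taken as log2(signal + 32) and quantile normalised, because array medians differed 1.82-fold. Of 45101 probe sets, 64 controls were left out, and those above their own array's median on at least 3 arrays (26860) were tested. One limma model (3.58.1, R 4.3.3; lmFit, eBayes with trend; 12 residual degrees of freedom) on all 18 arrays gave 11 comparisons, two-sided, with Benjamini-Hochberg adjustment over all probe sets; called means an adjusted p under 0.05. Fold changes are on the log2(signal + 32) scale, which understates dim genes. The fit was tested on simulated data. Of all probe sets, 34945 have 1 gene symbol, 932 several and 9160 none; only the first were named. All single-symbol probe sets of the 4 genes were reported. In each list up to 4 called genes with the largest change could be named, plus a few set genes such as Klf2; the 3 likest genes were named for each member. Members and lists were chosen with earlier results of these data known. Same-numbered arrays of a genotype had deviations from their group means that correlated at a median of 0.12 (-0.15 to 0.34), against -0.043 for differently numbered arrays of a genotype; since not every pair was over 0.1 and the labels do not explain the numbers, they were not treated as pairs.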

Additional observations from a re-analysis of the deposited data

Results flagged for a closer look

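S1pr1 was singled out because with IL-6 all 3 arrays of STAT3-deficient cells lay below medium while all 3 arrays of WT cells lay above it. The difference between these changes was tested at -0.35 and missed the threshold (limma, adjusted p = 0.296). With IL-6, separation from medium in either direction was shown by 11.3% of all probe sets in STAT3-deficient cells and 23.1% in WT cells. The share separated in opposite directions is not given here. The pattern depended on the normalisation. Deposited signals of the STAT3-deficient arrays overlapped, at 6305, 6215 and 6471 with IL-6 and 6604, 6366 and 6556 in medium. With median centring the change in STAT3-deficient cells was positive.

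In genes of the surrounding pathways the IL-6 change differed between STAT3-deficient and WT cells past the test (limma, adjusted p under 0.05 over all probe sets). Called were 6 higher and 2 lower of 17 naive state genes, and 3 and 0 of 10 adhesion molecules. Of 23 signalling genes these were 3 and 1, of 17 actin and integrin linkers 2 and 0, and of 9 chemokine axis genes 0 and 1. Of all probe sets 2.21% were called. The lists were chosen with earlier results known, and only genes allowed by the naming rule are given. The difference was negative, with a less positive change in STAT3-deficient cells, for Igfbp4 (-2.85), Grk6 (-1.08) and Gpr183 (-0.77). It was positive for the adhesion molecules Itga4 (1.62), Itgb7 (1.24) and Itga6 (0.76). It was positive for the naive state genes St8sia1 (1.37), Cd5 (1.14), Bcl2 (0.94), Klf2 (0.62) and Il7r (0.55). It was also positive for Pdlim4 (2.20), Pdlim1 (1.01), Rgs10 (0.81), Arrb2 (0.75) and Rac2 (0.59). Groups of 3 arrays were too small for a check of single outlying arrays.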

How the results depend on the processing

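Of 17 member calls, 10 held in each of the 18 fits without 1 array, and 6 held in these and all 13 other alternatives: Dapl1 with both cytokines in WT cells and with IL-27 in STAT3-deficient cells, S1pr1 between genotypes with IL-6, and Actn1 1427385_s_at between genotypes with IL-27 and IL-6 (no value for 1427385_s_at or 1452415_at with 1 probe set per gene). The cause of the losses was not tested.

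Median centring gave 1 called member with IL-6 in WT (3 in the reported fit), 1 with IL-27 in WT (3), 0 for IL-27 against IL-6 in WT (1), 0 with IL-6 in STAT3-deficient cells (1), 1 with IL-27 there (4), 1 for the IL-6 difference (0), and, between genotypes, 2 with IL-27 (1) and 4 in medium (1). The deposited scaling gave 2 with IL-27 in STAT3-deficient cells, 1 for the IL-6 difference, and 2 and 4 between genotypes with IL-27 and in medium. No variance trend gave 0 for IL-27 against IL-6 in WT and 1 with IL-27 in STAT3-deficient cells. Only the arrays compared gave 2 with IL-27 and 0 with IL-6 in STAT3-deficient cells. Without the STAT3-deficient arrays numbered 3 the counts were 2 and 0 there and 2 between genotypes with IL-27. Array weights gave 1 for the IL-6 difference, and 3 and 2 between genotypes with IL-27 and in medium. One probe set per gene gave 1 for the IL-6 difference and 0 between genotypes with IL-27 and in medium, and the strict filter (above the median on all arrays) 1 for the IL-6 difference. Without single arrays the counts ran from 2 to 4 with IL-6 in WT, 3 to 4 with IL-27 in WT, 0 to 1 for IL-27 against IL-6 in WT, 0 to 1 with IL-6 and 2 to 5 with IL-27 in STAT3-deficient cells, 0 to 1 for the IL-6 difference, and 1 to 2 with IL-27, 2 to 3 with IL-6 and 1 to 2 in medium between genotypes.

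The data hold a hint that the replicate numbers pair arrays: 13 of 18 correlated best with their own number within the genotype, and in all 3 STAT3-deficient groups the array numbered 1 had the highest B cell and the lowest activated or memory T cell marker sum, and the array numbered 3 the reverse. A replicate block within genotype gave 2 members for the IL-6 difference, Dapl1 (adjusted p = 0.0129) and Ccr7 (adjusted p = 0.0450), and 5 with IL-27 in STAT3-deficient cells.

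Median centring turned the sign of Ccr7 with IL-27 in STAT3-deficient cells (0.089) and, between genotypes, of Ccr7 with IL-6 (-0.28), Actn1 1428585_at in medium (-0.74), Msn (-0.028), Itga6 (-0.061) and Itgal (-0.047) with IL-27, and in medium Actn4 (-0.39), Ezr (-0.15), Msn (-0.41), Parvg (-0.026), Dock2 (-0.27), Stk4 (-0.14), Foxo1 (-0.41), Il7r (-0.64), Klf2 (-0.58; -0.044 with the deposited scaling), Lef1 (-0.56) and S1pr4 (-0.50). It moved the median of all probe sets between genotypes to -0.19 with IL-27, -0.18 with IL-6 and -0.36 in medium, and the deposited scaling to 0.10, 0.14 and 0.18. Sign changes where neither value was called are left out, among them that of S1pr1 with IL-6 in STAT3-deficient cells.

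Over all probe sets, calls between genotypes were 3960 with IL-27, 5477 with IL-6 and 6515 in medium, of which 50.3%, 48.8% and 46.4% were higher; with median centring 15.5%, 17.3% and 11.4% were higher and medium had 11387 calls, and with the deposited scaling 64.1% were higher in medium. One probe set per gene gave 1945, 2826 and 3190, and with IL-27 only the arrays compared gave 2290 and the block within genotype 2601. IL-27 in STAT3-deficient cells had 968 calls (596 with 1 probe set per gene, 494 with only the arrays compared, 1453 without the arrays numbered 3), with 72.7% higher and 98.2% with median centring. IL-6 there had 383 (221 and 194 in the first 2 of these). IL-27 against IL-6 had 55 in STAT3-deficient cells (17 with median centring, 93 with the block within genotype, 30 without trend, 24 with only the arrays compared) and 624 in WT (376 with 1 probe set per gene, 396 with median centring). WT had 1663 with IL-6 (996 with 1 probe set per gene) and 822 with IL-27 (1346 with array weights). The IL-6 difference had 594 (369 with 1 probe set per gene, 1006 with the block within genotype), with 56.4% higher and 72.4% with median centring, and the IL-27 difference 2 (1 to 6).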
